A study of Mus musculus with 3 samples.

Results

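The genes described here are the receptors and ligands of a signalling axis that runs through Janus kinases (JAKs) in skin, namely Tslp, Crlf2, Il31ra, Il4ra, Il13ra1, Il13ra2, Il7, Il7r, Il2rg and Il15. They were chosen by name, as cytokine genes of type 2 immunity, itch and the common gamma chain, and are 10 of the 32285 genes in the deposited matrices. All 10 were found under these symbols, and each was followed across 17 cell classes and 3 single-cell libraries of mouse dorsal skin.

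Thymic stromal lymphopoietin (TSLP, from Tslp) is an alarmin that barrier cells release, and it binds a receptor made of CRLF2 and the IL-7 receptor alpha chain (Il7r). IL-7 and IL-15 keep lymphocytes alive and signal through the common gamma chain (Il2rg), which IL-7 joins to Il7r. IL-4 binds IL4RA (Il4ra) with the gamma chain on blood cells or with IL13RA1 (Il13ra1) on structural cells, and IL-13 uses the latter pair, while IL13RA2 (Il13ra2) binds IL-13 and is best known as a decoy. IL31RA (Il31ra) forms the receptor for the itch cytokine IL-31 together with the oncostatin M receptor chain Osmr. The intracellular parts of the signalling receptors, IL13RA2 left aside, recruit JAK1, JAK2, JAK3 or TYK2, which phosphorylate STAT proteins, and ruxolitinib blocks JAK1 and JAK2.

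Each condition was represented by 1 library, so there is no replicate check, no test between conditions was made, and the intervals given are 95% intervals for counting error only. All mice were labelled C57BL/6J, wild type, female and 8 weeks old. The paper gives this age for the mice as purchased, and the age at sampling was not given. CON skin received vehicle and no irradiation. UV skin was irradiated every other day for 12 weeks with UVA at 0.60 and UVB at 3.5 mW/cm2 and received vehicle. Rux skin had the same irradiation followed directly by an ointment with 1.5% ruxolitinib. Full-thickness dorsal skin was taken 24 h after the last exposure. The number of mice in each library was not given in the sources used here, and differences between animals therefore cannot be told apart from those between conditions.

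The 3 libraries went against 1 of their labels. Although all mice were labelled female, the Y-linked gene Ddx3y stood at 111 counts per 1000000 (CPM) in CON, 115 CPM in UV and 121 CPM in Rux, and Xist, which marks an inactive X chromosome, was near 0 at 0.0917, 0.119 and 0.111 CPM. The libraries were alike in this, so the mismatch does not separate the conditions. CON and UV shared 50 cell barcodes, CON and Rux 28, and UV and Rux 40. After filters, 10885 CON, 10327 UV and 9386 Rux cells remained, with median depths of 7540, 7639 and 9438 unique molecular identifiers (UMIs) per cell.

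Cells were clustered and named from marker lists, and every name carries "-like" because no deposited annotation was used. The classes were fibroblasts (FB), basal keratinocytes (KB), suprabasal keratinocytes (KS), hair follicle (HF), sebaceous gland (SG) and other mixed epithelial cells (EPI), vascular (VEC) and lymphatic (LEC) endothelium, pericytes (PCY), muscle progenitors (MP), skeletal muscle (SKM), Schwann cells (SCH), melanocytes (MEL), lymphoid cells (LYM), myeloid cells (MYE), neutrophils (NEU) and mast cells (MC). FB-like cells were the most numerous, with 3344 cells in CON, 4983 in UV and 4678 in Rux, and all 8 of their markers were detected in each library. KS-like cells numbered 1225, 262 and 292, and changes in the makeup of this class were not examined. LYM-like cells numbered 258, 239 and 360 and MYE-like cells 279, 247 and 455. The smallest classes, NEU-like cells of UV and SG-like cells of Rux, held 22 each. Immune groups and subclusters within the classes could be smaller, such as the 18 NK-like cells of CON. A level in CPM is the sum of a gene's UMIs over the cells of a class per 1000000 UMIs of that class. A log2 ratio compares the levels of 2 libraries, and a ratio past 1.5-fold is only a rule of size.

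The genes lie at separate loci of the mouse genome (GRCm38, GENCODE M21). Crlf2 lies at chr5:109554709-109558993 (minus strand). Il31ra spans chr13:112519898-112594360 (minus), Il4ra chr7:125552120-125579474 (plus), Il7 chr3:7569994-7613760 (minus), Il7r chr15:9505788-9530176 (minus) and Il15 chr8:82331632-82403222 (minus). The X chromosome carries 3 of them, Il13ra1 at chrX:36112110-36171259 (plus), Il13ra2 at chrX:147383476-147429192 (minus) and Il2rg at chrX:101264378-101268255 (minus). All are protein-coding. Il31ra overlaps Gm3226 and Il2rg overlaps Gm20489 on the same strand, so reads of these pairs may be split between them.

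Promoter windows of 250 bases before to 50 after the RefSeq start (GRCm38.p6) were found for 7 of the 10 genes, with no entry for Tslp, Il7 and Il15. The motifs searched on both strands were TTCNNNGAA and TTCNNNNGAA, the shapes that STAT proteins are known to bind, and TGANTCA, the shape of AP-1 sites. The windows of 3 receptor genes with marked differences between libraries are shown for their sequence context, with a motif in capitals where one was found.
Il31ra, chr13:112580613-112580912, minus strand: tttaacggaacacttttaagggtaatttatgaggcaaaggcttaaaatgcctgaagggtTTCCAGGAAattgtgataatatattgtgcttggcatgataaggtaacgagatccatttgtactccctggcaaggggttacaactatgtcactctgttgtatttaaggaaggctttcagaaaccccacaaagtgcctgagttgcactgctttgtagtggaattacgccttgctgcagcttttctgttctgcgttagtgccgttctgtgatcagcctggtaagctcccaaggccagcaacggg
Il4ra, chr7:125552021-125552320, plus strand: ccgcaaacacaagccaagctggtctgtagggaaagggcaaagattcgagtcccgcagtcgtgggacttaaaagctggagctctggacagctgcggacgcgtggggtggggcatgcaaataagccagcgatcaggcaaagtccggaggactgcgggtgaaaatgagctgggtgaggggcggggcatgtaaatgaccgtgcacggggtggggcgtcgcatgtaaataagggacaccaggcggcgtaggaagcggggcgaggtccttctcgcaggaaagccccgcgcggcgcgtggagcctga
Il7r, chr15:9529827-9530126, minus strand: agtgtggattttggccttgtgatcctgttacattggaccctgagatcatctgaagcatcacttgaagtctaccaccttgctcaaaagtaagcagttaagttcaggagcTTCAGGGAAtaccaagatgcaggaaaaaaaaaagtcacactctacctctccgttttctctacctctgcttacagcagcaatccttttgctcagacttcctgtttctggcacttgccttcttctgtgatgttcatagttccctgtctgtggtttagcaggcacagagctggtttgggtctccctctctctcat
TTCNNNGAA began at position -191 in the Il31ra window and at -142 in that of Il7r, counted from the start, and none of the motifs was in that of Il4ra. The RefSeq starts used for Il31ra, Il4ra and Il7r lie inside the longer GENCODE spans. The windows of Il31ra and Il7r lie wholly inside them. A match is common: TTCNNNGAA was in 8.3% of 32851 promoters, TTCNNNNGAA in 6.95% and TGANTCA in 7.81%. The other window with a match was that of Il13ra2, with TGANTCA at -193, and a match in letters is not a bound site.

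The leading class of most of these genes was the same in all 3 libraries. The class with the highest level was the same in CON, UV and Rux for 7 of the 10 genes: NEU-like cells for Crlf2 and Il15, LYM-like cells for Il7r and Il2rg, VEC-like cells for Il4ra, LEC-like cells for Il7 and SG-like cells for Il13ra2. The others were Tslp, Il31ra and Il13ra1, whose leading classes changed places. Ligand genes were low in lymphoid cells, while the receptor chains Il7r and Il2rg were low in fibroblast-like and epithelial cells.

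**Figure D1:**
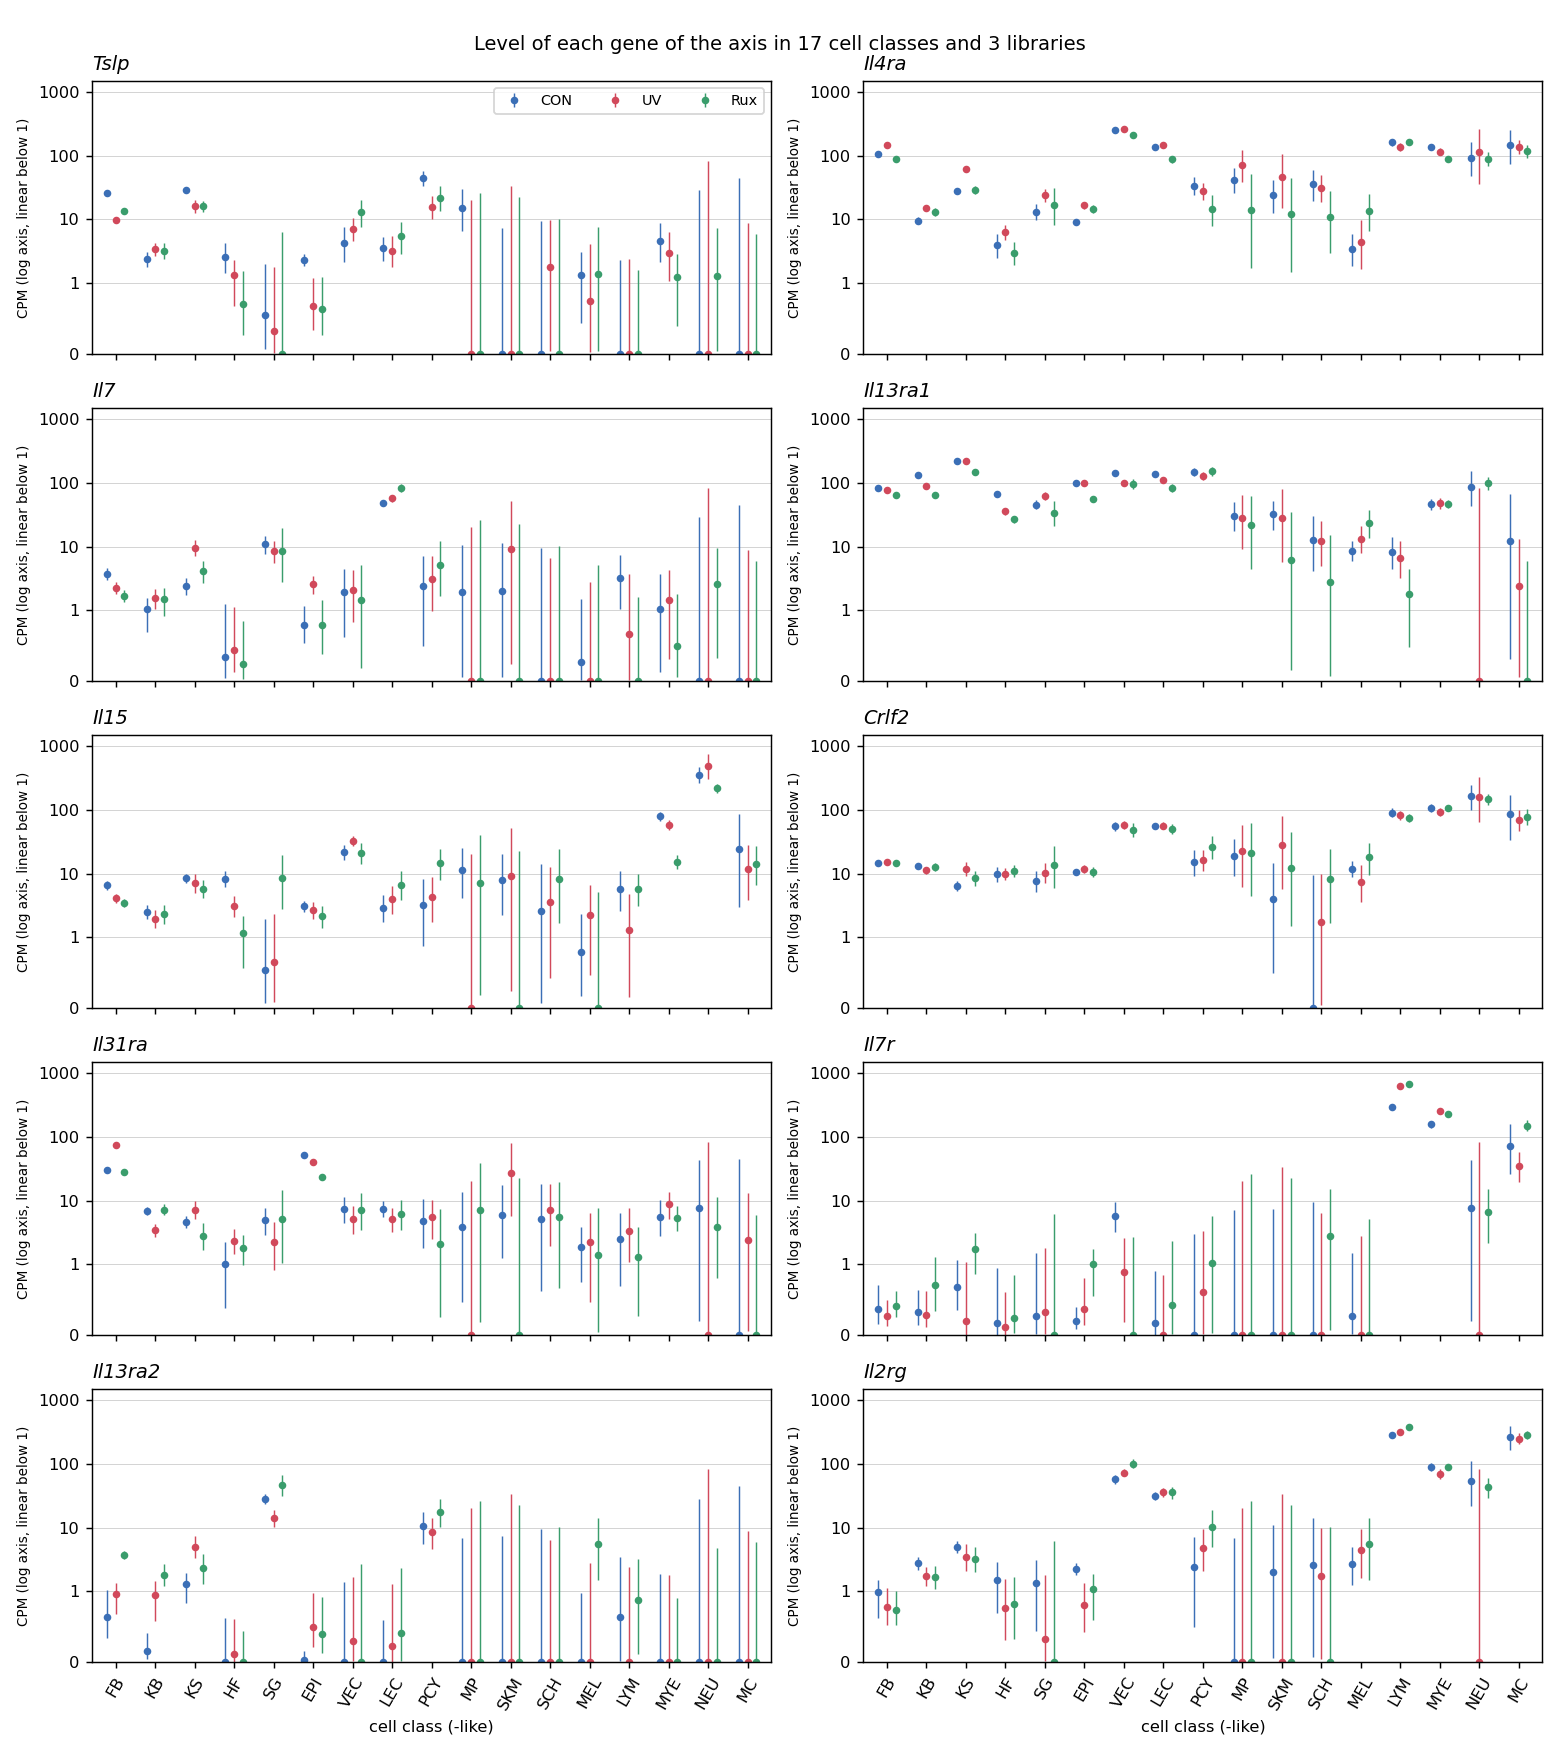
Level of the 10 genes in 17 cell classes (x axis) in CPM (y axis, logarithmic above 1 and linear below). Points are the sums over the cells of a class in the CON, UV and Rux libraries (1 library per condition), and bars are 95% intervals for counting error. Il7r reached 639 and 688 CPM in LYM-like cells of UV and Rux, and Il7 stood out in LEC-like cells at 48.7 to 84.3 CPM.

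Tslp (chr18:32815383-32819797, plus strand) was expressed by mesenchymal and suprabasal cells, and in these its level was lower in UV than in CON. PCY-like cells held 45.1 CPM in CON, 15.8 in UV and 21.9 in Rux (56, 26 and 21 UMIs), KS-like cells 29.4, 16.1 and 16.2 CPM, and FB-like cells 26.4, 9.73 and 13.7 CPM. CON was the highest library in all 3 classes, and the ranges of these classes over the libraries overlapped, so their order is not fixed. In FB-like cells the log2 ratio of UV over CON was -1.44 (-1.63 to -1.25) from 586 and 364 UMIs, and that of Rux over UV was 0.50 (0.31 to 0.68). The UV over CON ratio was -1.50 (-2.25 to -0.82) in PCY-like and -0.86 (-1.22 to -0.53) in KS-like cells. It had the other sign in KB-like cells, at 0.52 (0.01 to 1.04). VEC-like cells had few UMIs and levels of 4.23, 7.15 and 12.9 CPM, with UV and Rux above CON. No Tslp UMI was seen in LYM-like cells, and 0 of 258, 239 and 360 cells allow shares of cells with a UMI of up to 1.16%, 1.26% and 0.833%, which does not limit the share of cells that express the gene.

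Within FB-like cells Tslp differed between subclusters, and the makeup of the class moved with the library. A subcluster led by the immediate-early and feedback genes Socs3, Gadd45g and Irf1 (subcluster 1) held 1194 cells of CON, 445 of UV and 22 of Rux, with Tslp at 44.4, 8.54 and 9.42 CPM. Subcluster 3 stood at 41.6, 15.3 and 28.8 CPM and subcluster 5, led by Thbs4, at 46.0, 24.8 and 26.8 CPM. Among the 12 subclusters with at least 20 cells in both libraries, Tslp was lower in UV than in CON in 10. The exceptions were subclusters 11 and 12. Among the 10, counting intervals included 0 in subclusters 0, 6, 8 and 9. Tslp was higher in Rux than in UV in 8, but log2 ratios were near 0 in subclusters 2, 4 and 5 (0.09, 0.07 and 0.10). Counting intervals included 0 in these and in subclusters 1 and 6, where Rux of subcluster 1 gave 2 UMIs and UV of subcluster 6 gave 0. The share of all genes with such counts was not computed. A further subcluster, led by the acute-phase genes Saa3, Hp and Lcn2 (subcluster 10), held 435 of its 450 cells in Rux and none in CON, and its Tslp level there was 26.7 CPM. Without the subclusters led by Socs3 and by Saa3 the FB-like log2 ratio of UV over CON was -0.67, and that of Rux over UV was 0.21. What the expression of immediate-early genes contributed to the CON level was not tested.

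Il7 was largely a gene of lymphatic endothelium in these libraries. LEC-like cells held 48.7 CPM in CON, 57.2 in UV and 84.3 in Rux (301, 248 and 202 UMIs), and every other class stayed at or below 10.8 CPM. The next class, SG-like cells, did not overlap this range. In LEC-like cells the log2 ratio of Rux over UV was 0.56 (0.28 to 0.83), under 1.5-fold, and that of UV over CON was 0.23 (-0.02 to 0.48). KS-like cells showed another order with 2.38, 9.51 and 4.06 CPM, where UV was the highest library, and log2 ratios of 2.00 (1.39 to 2.61) and -1.22 (-1.98 to -0.52). FB-like cells had 3.74, 2.22 and 1.68 CPM, with a UV over CON log2 ratio of -0.75 (-1.21 to -0.30).

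Il15, a survival factor for natural killer (NK) cells and memory T cells, was highest in the myeloid compartment. NEU-like cells held 359 CPM in CON, 497 in UV and 220 in Rux from 46, 22 and 168 UMIs. MYE-like cells held 79.3, 58.6 and 15.4 CPM (155, 120 and 63 UMIs). Rux was the lowest library in both classes, with log2 ratios of Rux over UV of -1.21 (-1.83 to -0.47) and -1.92 (-2.39 to -1.48). Macrophage-like cells within MYE kept the same order with 144, 102 and 26.1 CPM, and monocyte-like cells held 31.1, 34.6 and 9.44 CPM. Levels inside macrophage-like subclusters were also lower in Rux than in UV, in some from few UMIs. Macrophage-like subcluster 4 (Lyz1, Retnla) had 192, 93.8 and 42.7 CPM, with a Rux over UV interval of -1.80 to -0.48. Subcluster 5 (Ccl8, Lyve1) had 110, 53.1 and 13.9 CPM, but Rux gave 2 UMIs and the Rux over UV interval, -5.14 to 0.23, included 0. Subcluster 12 (Arg1, Cav1, Mmp12), with no cell in CON, had 214 CPM in 14 UV cells (29 UMIs) and 5.03 CPM in 64 Rux cells (3 UMIs).

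Il15 in the other classes was low and ordered differently. VEC-like cells held 21.5, 32.5 and 20.9 CPM, with a UV over CON log2 ratio of 0.59 (0.11 to 1.08) and a Rux over UV log2 ratio of -0.62 (-1.28 to -0.04). FB-like cells held 6.54, 4.09 and 3.45 CPM, with a UV over CON log2 ratio of -0.68 (-1.01 to -0.34). KS-like cells, at 8.39, 6.99 and 5.77 CPM, had intervals that included 0 in both comparisons.

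Crlf2, the chain specific to the TSLP receptor, differed little between libraries in most well-counted classes. It stood at 164, 158 and 148 CPM in NEU-like, 108, 94.3 and 107 CPM in MYE-like and 91.0, 82.3 and 75.7 CPM in LYM-like cells. MC-like cells (84.9, 68.8 and 77.9 CPM) overlapped the LYM-like range, whereas the NEU-like and MYE-like ranges over the libraries did not overlap each other. The neutrophil-like levels of CON and UV rested on 21 and 7 UMIs, with a UV over CON interval of -1.53 to 1.24. Both endothelial classes expressed it as well, LEC-like cells at 55.9, 56.7 and 50.9 CPM and VEC-like cells at 55.0, 58.1 and 48.9 CPM. In FB-like cells the levels were 14.6, 15.3 and 14.5 CPM, and the intervals of both log2 ratios, 0.07 (-0.13 to 0.27) and -0.08 (-0.24 to 0.08), lay within 1.5-fold. KS-like cells were the exception among well-counted classes, with a UV over CON log2 ratio of 0.90 (0.43 to 1.35).

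Il7r, the chain that the receptors for IL-7 and TSLP share, was higher in lymphoid and myeloid cells of both irradiated libraries than in CON. LYM-like cells held 293 CPM in CON, 639 in UV and 688 in Rux (463, 971 and 1563 UMIs), and MYE-like cells held 158, 254 and 228 CPM. The UV over CON ratio was 1.13 (0.97 to 1.29) in LYM-like and 0.68 (0.48 to 0.89) in MYE-like cells, while Rux and UV lay close, at 0.11 (-0.01 to 0.22) and -0.16 (-0.32 to -0.00). With each cell thinned to 2000 UMIs, 27.8% (22.3 to 33.8) of LYM-like cells of CON, 56.6% (49.9 to 63.1) of UV and 59.1% (53.7 to 64.4) of Rux had an Il7r UMI. Unthinned shares were 41.1%, 77.0% and 82.2% at median depths of 5416, 5393 and 5586 UMIs. MEL-like cells, which should lack the gene, had thinned shares of 0.699%, 0% and 0%, at unthinned median depths of 20410, 10890 and 11820 UMIs.

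Part of the lymphoid difference in Il7r moved with 1 group of cells. A cluster led by Trdc, a T cell receptor delta gene, held 94 LYM-like cells of CON but 2 of UV and 1 of Rux. Without it the UV over CON ratio was 0.55, under 1.5-fold, and that of Rux over UV was 0.10. Reclustered alone, the immune cells gave a gamma-delta T-like subcluster (10) with 93, 3 and 1 cells and Il7r at 20.8 CPM in CON. A second gamma-delta T-like subcluster (11), led by the IL-17 pathway genes Il17a, Blk and Il23r, held 941, 839 and 1209 CPM. Alpha-beta T-like cells went with the class, at 238, 581 and 669 CPM, as did their largest subcluster at 341, 715 and 708 CPM. NK-like cells held 112, 252 and 312 CPM from 14, 110 and 188 UMIs, those of CON in 18 cells. A subcluster left unnamed because it was led by both Il5 and Foxp3, genes of group 2 innate lymphocytes and regulatory T cells, was high in all libraries at 799, 1475 and 1131 CPM.

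Macrophage-like cells carried much of the myeloid difference in Il7r, with 79.1, 269 and 324 CPM. Their Arg1-led subcluster 12, absent from CON, was high at 870 CPM in UV and 671 CPM in Rux. Subcluster 4 held 163, 227 and 139 CPM and subcluster 5 20.4, 0 and 6.94 CPM, so neither showed the order of the whole group. An unnamed subcluster with dendritic and Langerhans cell genes (Cd207, Ccl22) stayed at 382, 447 and 351 CPM. In MC-like cells Il7r was at 72.8, 35.6 and 151 CPM from 6, 15 and 95 UMIs, with a Rux over UV log2 ratio of 2.05 (1.29 to 2.98), and the part of free RNA from other cells in these shallow mast-like cells was not tested.

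**Figure D2:**
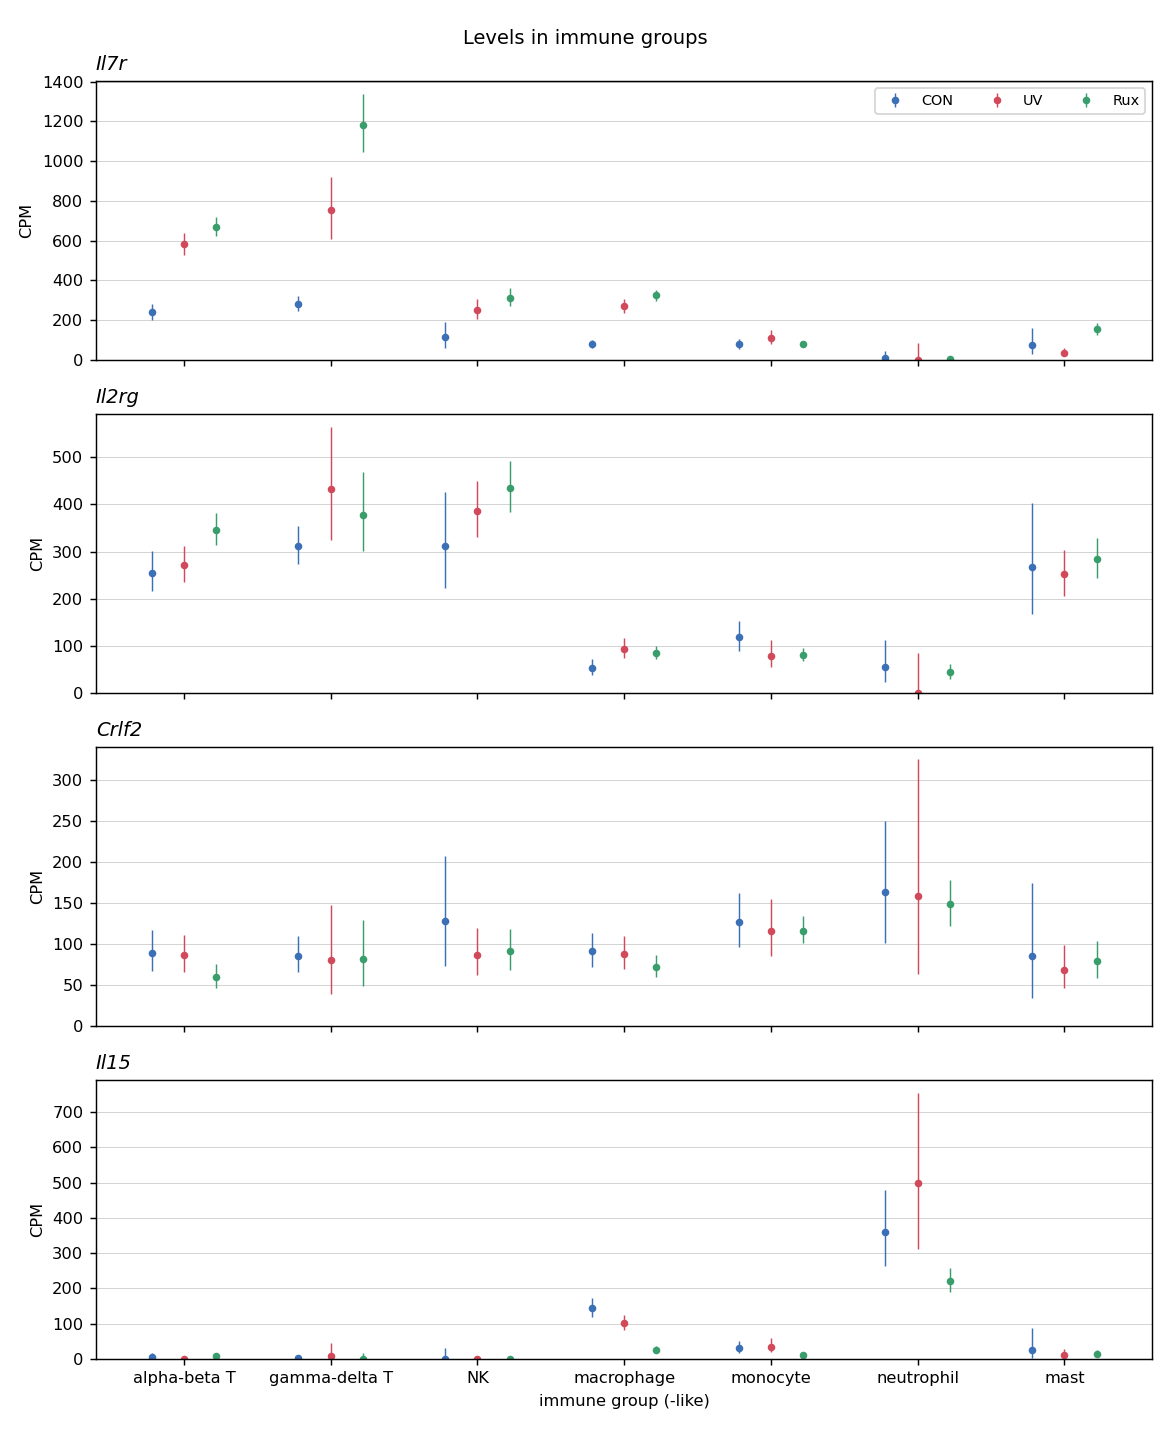
Levels of Il7r, Il2rg, Crlf2 and Il15 in CPM (y axes, linear) in 7 immune groups named from markers (x axis), for the CON, UV and Rux libraries (1 library per condition). Bars are 95% intervals for counting error. Il7r was lowest in CON in alpha-beta T-like (238 CPM), NK-like (14 UMIs in 18 cells) and macrophage-like cells. The gamma-delta T-like level in CON (281 CPM) pooled subclusters 10 and 11, at 20.8 and 941 CPM. In subcluster 11 alone UV was lowest (839 CPM), with a UV over CON log2 interval of -0.54 to 0.20. Il15 in macrophage-like cells was lowest in Rux (26.1 CPM).

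Il2rg, the common gamma chain gene, was highest in LYM-like and MC-like cells. It stood at 284, 322 and 380 CPM in LYM-like, 267, 251 and 285 CPM in MC-like and 89.6, 69.9 and 91.3 CPM in MYE-like cells. LYM-like and MC-like ranges overlapped, and both lay above the myeloid range. VEC-like cells, at 58.5, 73.3 and 102 CPM, overlapped the MYE-like range, and LEC-like cells held 31.6, 36.2 and 35.9 CPM. VEC-like cells were highest in Rux, with a Rux over UV log2 ratio of 0.48 (0.17 to 0.78). FB-like cells were near the limit of detection at 0.992, 0.776 and 0.741 CPM.

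Il4ra had UMIs in all 17 classes, and its level in fibroblast-like cells was highest in UV. VEC-like cells led with 257 CPM in CON, 266 in UV and 214 in Rux, followed by LYM-like cells with 164, 137 and 167 CPM. These ranges did not overlap, but those of LYM-like, MC-like and LEC-like cells did. FB-like cells held 105, 150 and 89.1 CPM (2332, 5607 and 4566 UMIs). With class makeup not held fixed, their log2 ratio was 0.51 (0.44 to 0.58) for UV over CON, under 1.5-fold, and -0.75 (-0.81 to -0.69) for Rux over UV. KS-like cells repeated the order with 28.2, 61.9 and 28.7 CPM and log2 ratios of 1.14 (0.93 to 1.34) and -1.11 (-1.38 to -0.84). LEC-like cells, at 139, 149 and 88.4 CPM, had a Rux over UV log2 ratio of -0.75 (-0.99 to -0.53) and a UV over CON interval that included 0. LYM-like cells went the other way, with 0.29 (0.04 to 0.54) for Rux over UV.

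The direction of Il4ra was counted over classes. It was lower in Rux than in UV in 14 of 16 classes, and 2.56% of the 1601 genes measured in as many classes were lower as often. It was past 1.5-fold lower in 7 of them, the FB-like, HF-like, KS-like, LEC-like, MP-like, PCY-like and SCH-like cells. Few cells had an Il4ra UMI in MP-like (5 in UV and 2 in Rux) and SCH-like cells (15 and 3). The share of genes past 1.5-fold in as many classes was not computed. For UV over CON Il4ra was higher in 12 of 17 classes, which 19.2% of 1621 genes matched or exceeded. Such shares were computed for Il4ra only. Of the genes described here, Il4ra was lower in Rux than in UV in the most classes. The 2.56% is therefore the share for a gene that already stood out in this direction, and no conclusion is drawn from it. Classes of 1 library share its handling, so they are not replicates. Inside FB-like cells Il4ra was lower in Rux than in UV in 11 of 12 subclusters, with subcluster 12 the exception, and higher in UV than in CON in 8. For UV over CON, the Il4ra counting intervals included 0 in subclusters 0, 1, 5, 7 and 11 of these. Il13ra1 was also lower in Rux than in UV in 11 of 12, with intervals that included 0 in subclusters 2, 6, 7, 8, 9, 11 and 12. The share of all genes was not computed. For Il4ra, subcluster 3 held 160, 236 and 128 CPM and subcluster 5 213, 232 and 121 CPM. Subcluster 3 had 130 cells of CON, 1014 of UV and 420 of Rux, so the FB-like ratios of Il4ra also moved with the makeup of the class.

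Il13ra1, which completes the receptor for IL-13, was highest in the suprabasal epidermis and lower in Rux there. KS-like cells held 225, 224 and 147 CPM, PCY-like cells 148, 129 and 153 CPM and LEC-like cells 137, 111 and 84.3 CPM, and neighbours in this order overlapped. The Rux over UV ratio was -0.61 (-0.74 to -0.48) in KS-like and -0.83 (-0.96 to -0.70) in EPI-like cells, which held 101, 101 and 56.6 CPM. The UV over CON intervals in these classes, -0.10 to 0.09 and -0.09 to 0.08, included 0. In KB-like cells the levels were 131, 88.4 and 65.3 CPM, and in FB-like cells 84.3, 76.1 and 65.3 CPM.

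Il13ra2 was a gene of gland-like cells, with 28.5, 14.3 and 47.4 CPM in SG-like cells (105, 44 and 28 UMIs). The Rux library contributed 22 SG-like cells. PCY-like cells followed with 10.5, 8.50 and 17.7 CPM. FB-like cells had 0.632, 0.963 and 3.71 CPM from 14, 36 and 190 UMIs, and the Rux over UV ratio was 1.93 (1.43 to 2.50). Of the 190 Rux UMIs, 129 came from the Saa3-led subcluster 10, at 16.6 CPM. Without the subclusters led by Socs3 and by Saa3 the ratio was 0.50. Weighted to the CON shares of UMIs over 12 of 13 subclusters, which leaves out subcluster 10, it was -0.58, the opposite sign.

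Il31ra, the chain that gives the receptor its specificity for IL-31, was highest in UV in FB-like cells and in CON in EPI-like cells. FB-like cells held 30.9 CPM in CON, 73.6 in UV and 28.2 in Rux (684, 2753 and 1446 UMIs). EPI-like cells held 53.0, 40.3 and 23.9 CPM, and the 2 classes overlapped each other but not the next. The keratinocyte classes were lower and ordered differently, KS-like cells with 4.61, 7.18 and 2.81 CPM and KB-like cells with 6.88, 3.43 and 7.23 CPM. In FB-like cells the log2 ratio was 1.25 (1.13 to 1.38) for UV over CON and -1.38 (-1.48 to -1.29) for Rux over UV. These ratios do not hold the makeup of the class fixed. With cells thinned to 2000 UMIs, 4.13% (3.47 to 4.88) of FB-like cells had an Il31ra UMI in CON, 9.48% (8.66 to 10.4) in UV and 3.98% (3.43 to 4.59) in Rux. The unthinned shares were 10.1%, 21.9% and 12.6% at median depths of 6039, 7240 and 9772 UMIs. LYM-like cells gave a background of 0%, 1.75% and 0.290% after thinning, at unthinned depths of 5416 to 5586 UMIs.

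The difference in Il31ra was seen in several fibroblast-like subclusters. It was lower in Rux than in UV in 11 of 12 subclusters, with subcluster 6 the exception, and higher in UV than in CON in 8 of 12. Among these, counting intervals included 0 in subclusters 1, 5, 8 and 12 for Rux over UV. For UV over CON they included 0 in subclusters 4, 5 and 6. The share of all genes with such counts was not computed. Subcluster 3 held 71.7, 117 and 26.7 CPM and subcluster 7, led by Rrad, 51.9, 101 and 18.9 CPM. Subclusters 2 and 11 were high in CON already, with 78.2, 73.8 and 52.4 CPM and 179, 162 and 48.3 CPM. Epithelial Il31ra sat in 1 cluster of EPI-like cells led by Gm973, Adamts19 and the stem cell gene Lgr5. It gave 1811 of the 1928 EPI-like UMIs of CON and held 148, 131 and 158 CPM over 554, 216 and 112 cells. The lower EPI-like level in Rux moved with a smaller share of cells from this cluster, while the level inside it did not show that order.

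**Figure D3:**
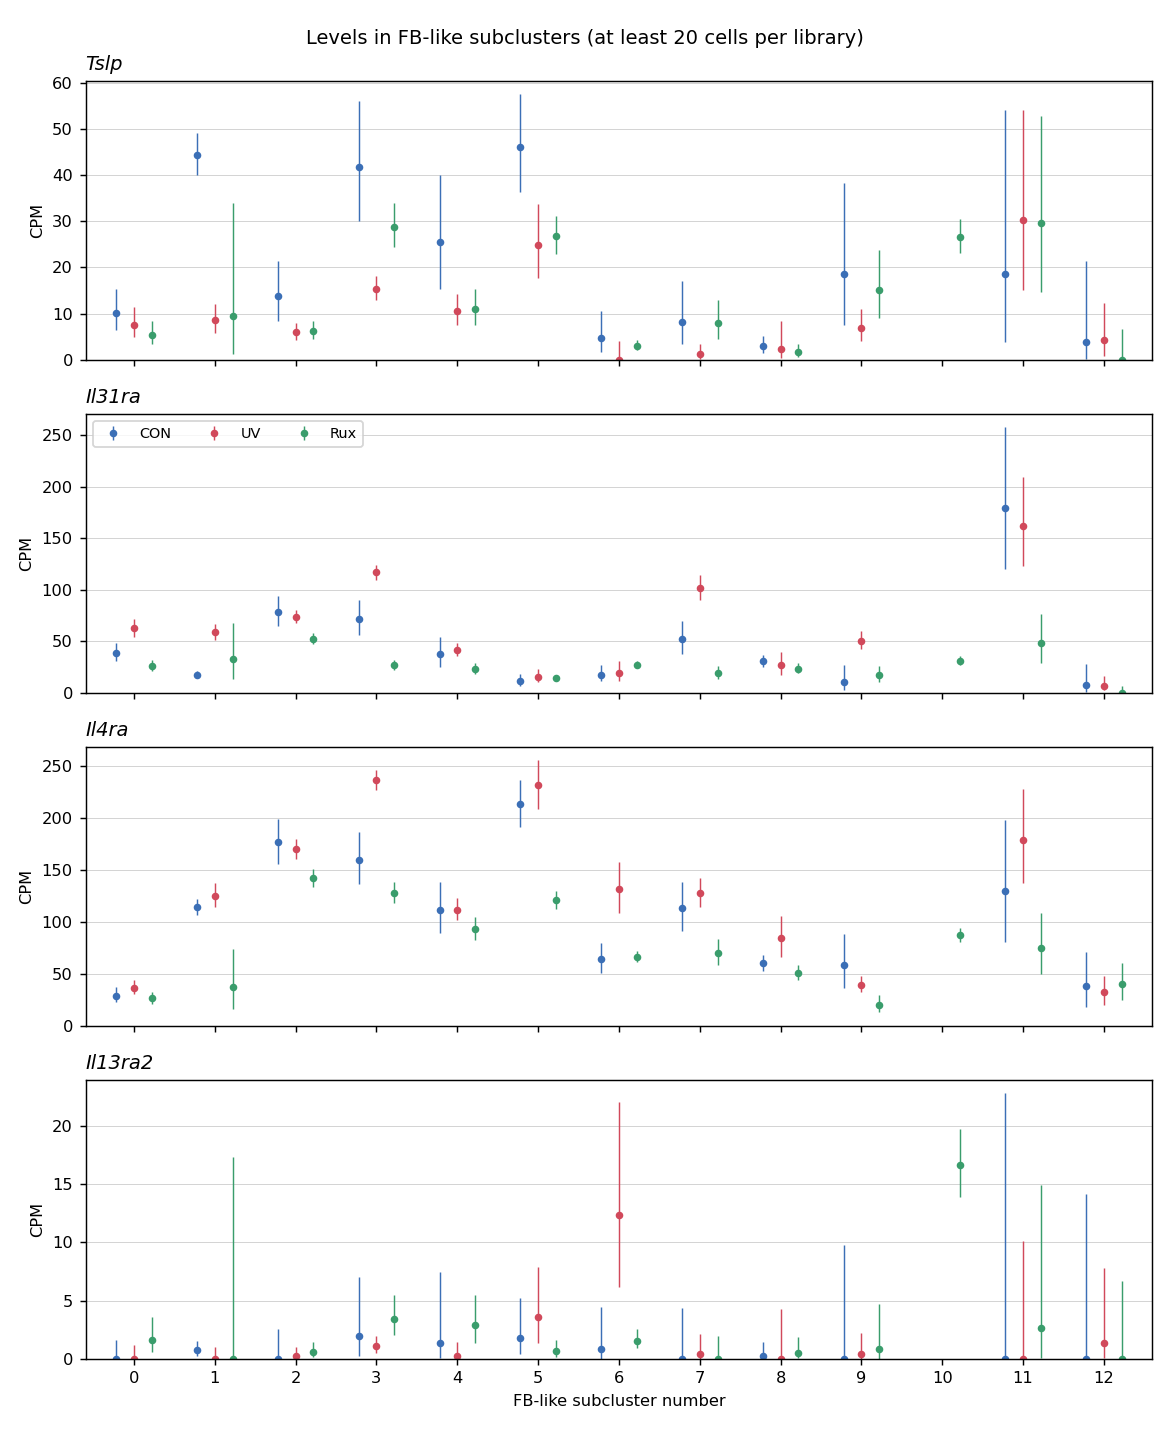
Levels of Tslp, Il31ra, Il4ra and Il13ra2 in CPM (y axes, linear) in the 13 FB-like subclusters (x axis, by number), for libraries with at least 20 cells of the subcluster (1 library per condition). Bars are 95% intervals for counting error. Subcluster 10 appears for Rux only, where Il13ra2 was 16.6 CPM. In subcluster 3, Il31ra and Il4ra were highest in UV at 117 and 236 CPM.

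In FB-like cells all 10 genes reached the minimum of 10 UMIs over 2 libraries. For UV over CON, 1 was past 1.5-fold higher (Il31ra) and 3 were past it lower (Tslp, Il7 and Il15), beside 32.6% of 18221 genes past it in either direction. Their median log2 ratio was -0.26, and that of all genes was -0.09. For Rux over UV, 1 was higher (Il13ra2) and 2 were lower (Il31ra and Il4ra), beside 26.0% of 18911 genes, and the medians were -0.15 and -0.05. Both counts depended on the makeup of the class. Without the subclusters led by Socs3 and by Saa3, 8 were past 1.5-fold for UV over CON. For Rux over UV, 5 were past it with subclusters weighted to the shares of CON. With the unnamed clusters that carry FB-like markers added, 5 were past it for Rux over UV. The share of all genes was not computed under these alternatives, so these counts are not a result about the 10 genes. The comparisons share the UV library, so an odd value there would enter both with opposite sign.

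**Figure D4:**
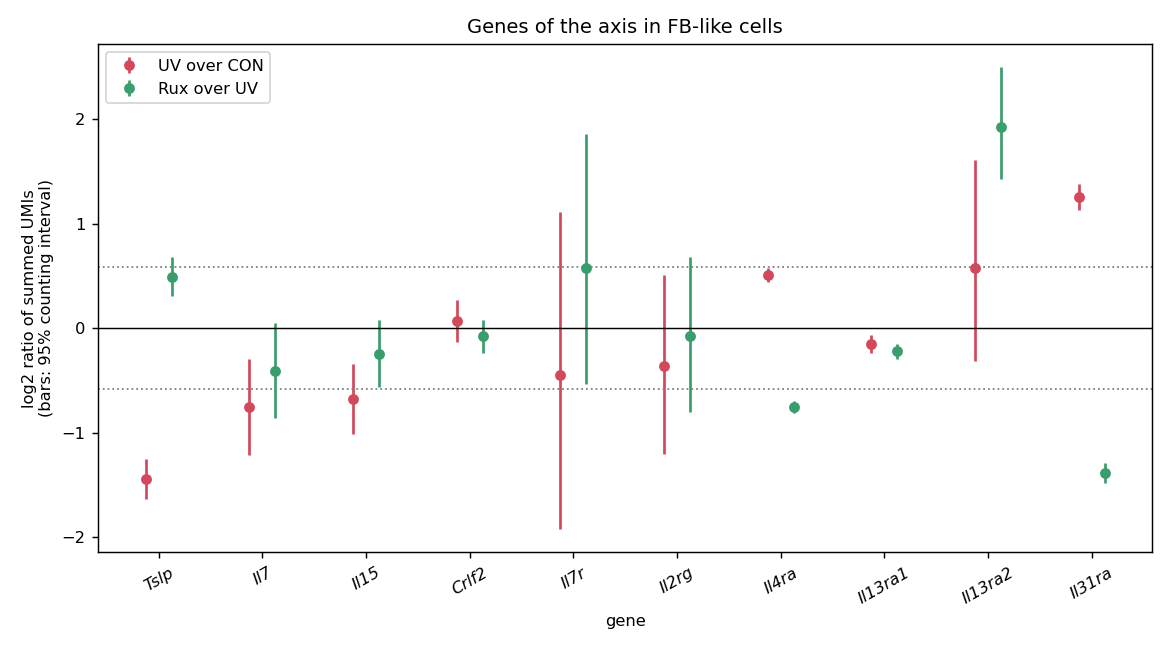
Log2 ratios of the 10 genes in FB-like cells (y axis) for UV over CON and Rux over UV, with 95% intervals for counting error as bars and dotted lines at 1.5-fold. Il31ra stood at 1.25 and -1.38, Il4ra at 0.51 and -0.75 and Tslp at -1.44 and 0.50, so each lay on opposite sides of 0 in the comparisons, which share the UV library.

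Other classes with enough cells gave other counts. In KS-like cells 5 genes were higher in UV than in CON (Crlf2, Il31ra, Il4ra, Il13ra2 and Il7) and 2 lower (Tslp and Il7r), beside 33.4% of all genes past 1.5-fold. This class held 1225, 262 and 292 cells in CON, UV and Rux, and changes in its makeup were not examined. For Rux over UV, 1 was higher (Il7r) and 5 lower (Il31ra, Il4ra, Il13ra1, Il13ra2 and Il7), beside 21.0%, with medians of -0.55 for these genes and 0.00 for all. Il7r there rested on 13, 1 and 11 UMIs. In MYE-like cells 8 genes reached the minimum. Of these, 2 were higher (Il31ra and Il7r) and 1 lower (Tslp) for UV over CON, beside 29.0%, and 3 were lower (Tslp, Il31ra and Il15) for Rux over UV, beside 30.8%. Tslp there was near the floor, at 1.22 to 4.61 CPM over the libraries, and macrophage-like cells gave 5, 5 and 3 of its UMIs. In VEC-like cells 2 of 9 were higher (Tslp and Il15) and 1 lower (Il7r) for UV over CON, beside 24.3%. Il7r UMIs there lay in 4 of 406 cells of CON and 2 of 473 of UV. For Rux over UV, 1 of 7 was higher (Tslp) and 1 lower (Il15), beside 24.2%.

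Whether partner chains occurred in the same cell was read from shares of cells with a UMI of both, which rise with depth and are therefore not ranked between libraries. In FB-like cells Il4ra and Il13ra1 met in 15.8% of cells in CON, 20.8% in UV and 22.6% in Rux, whereas Il4ra and Il2rg met in 0.329%, 0.261% and 0.385%. LYM-like cells had the opposite pattern for the IL-4 receptors, with Il4ra and Il2rg together in 39.1%, 39.3% and 46.4% and Il4ra and Il13ra1 in 1.94%, 2.51% and 0.833%. The separate shares multiplied give 13.8%, 17.5% and 18.8% for Il4ra and Il13ra1 in FB-like cells. For Il4ra and Il2rg in LYM-like cells they give 35.7%, 37.5% and 42.5%. Il2rg alone was seen in 0.568%, 0.522% and 0.791% of FB-like cells, so the contrast largely follows the separate shares. Il7r and Il2rg met in 29.8%, 59.8% and 67.5% of LYM-like cells, close to the 28.7%, 57.0% and 64.9% that the separate shares give when multiplied. Il31ra and Osmr met in 7.72%, 17.9% and 10.6% of FB-like cells, against products of 6.91%, 16.7% and 9.54%. The TSLP receptor pair Crlf2 and Il7r met in 15.1%, 16.2% and 21.1% of MYE-like cells, against products of 10.9%, 15.4% and 20.1%. It met in at most 0.100% of FB-like cells.

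Apart from Il33, the other ligand genes of the pathway list gave few UMIs, in immune and in FB-like cells. Not all of these ligands bind the receptors described here. Over all kept cells Il4 gave 85 UMIs in CON, 254 in UV and 328 in Rux, of which MC-like cells held 49, 192 and 277. Il13 gave 54, 108 and 218 UMIs, most of them in LYM-like cells in CON (30) and in MC-like cells in UV (93) and Rux (181). MC-like cells numbered 62, 169 and 209, and what the number of mast-like cells caught contributed to these sums was not tested. Il31 gave 3, 33 and 3 UMIs, and 24 of the 33 in UV lay in FB-like cells, spread as 33 UMIs over 32 cells. Il5, an eosinophil growth factor, gave 92, 63 and 93 UMIs, nearly all in LYM-like cells. Il2, a T cell growth factor that uses the gamma chain, gave 144, 144 and 165 UMIs over 140, 130 and 153 cells. FB-like cells held the most of any class (32, 39 and 65), but they were also 30.72%, 48.25% and 49.84% of kept cells. Whether these scattered UMIs were free RNA from other cells was not tested. Il25, Il9 and Il21 gave 5 UMIs or fewer in each library.

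The other genes of the pathway were counted in FB-like cells from lists by role. Of 8 receptor chains, 5 were past 1.5-fold higher in UV than in CON and 1 lower, beside 32.6% of all genes past it in either direction. For Rux over UV, 1 of 8 was higher and 2 were lower, beside 26.0%. Il1rl1, the receptor for the alarmin IL-33, stood at 7.76, 29.0 and 55.1 CPM, with log2 ratios of 1.90 (1.67 to 2.15) and 0.92 (0.82 to 1.03), so Rux was the highest library. Il15ra, which presents IL-15, stood at 79.5, 150 and 110 CPM, with a log2 ratio of 0.92 (0.84 to 1.00) for UV over CON. Among the ligands 4 of 9 reached the minimum, 3 of them higher, for UV over CON, and 5 did for Rux over UV, 3 of them lower. Il33 stood at 111, 176 and 144 CPM, with a UV over CON log2 ratio of 0.67 (0.60 to 0.74). None of the 9 kinase and STAT genes was past 1.5-fold higher in UV over CON and 2 were lower, and for Rux over UV none was past it in either direction. Jak1 stood at 608, 617 and 464 CPM and Jak2 at 116, 132 and 133 CPM.

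In the feedback list more genes were lower than higher in both comparisons. Of 13 feedback and STAT target genes with the minimum, 2 were higher and 5 lower for UV over CON, and of 14 for Rux over UV, 3 were higher and 4 lower, beside 32.6% and 26.0% of all genes past 1.5-fold. Socs3, which blocks JAK signalling from gp130 receptors, stood at 937 CPM in CON, 431 in UV and 128 in Rux, with log2 ratios of -1.12 (-1.15 to -1.09) and -1.75 (-1.79 to -1.71). Socs1 stood at 102, 50.6 and 18.5 CPM, with intervals of -1.09 to -0.92 and -1.57 to -1.34. Both were highest in CON, where the subcluster that Socs3 itself leads held most of its cells. Of 10 genes upstream of Tslp or Il15, 6 were lower in UV than in CON, and in Rux 6 were higher and 1 lower than in UV, beside the same shares of all genes. Irf1, an inducer of Il15, stood at 671 and 207 CPM in CON and UV, with a log2 ratio of -1.70 (-1.74 to -1.66). Vdr, the vitamin D receptor, stood at 10.9, 5.67 and 15.9 CPM, with a Rux over UV log2 ratio of 1.49 (1.27 to 1.72). Nfkbia, the inhibitor of NF-kappa-B, stood at 1668, 1001 and 1683 CPM (0.75, 0.73 to 0.77, for Rux over UV), and Nlrc5, a regulator of MHC class I genes, stood at 29.1, 17.3 and 5.62 CPM (-1.62, -1.82 to -1.42).

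**Figure D5:**
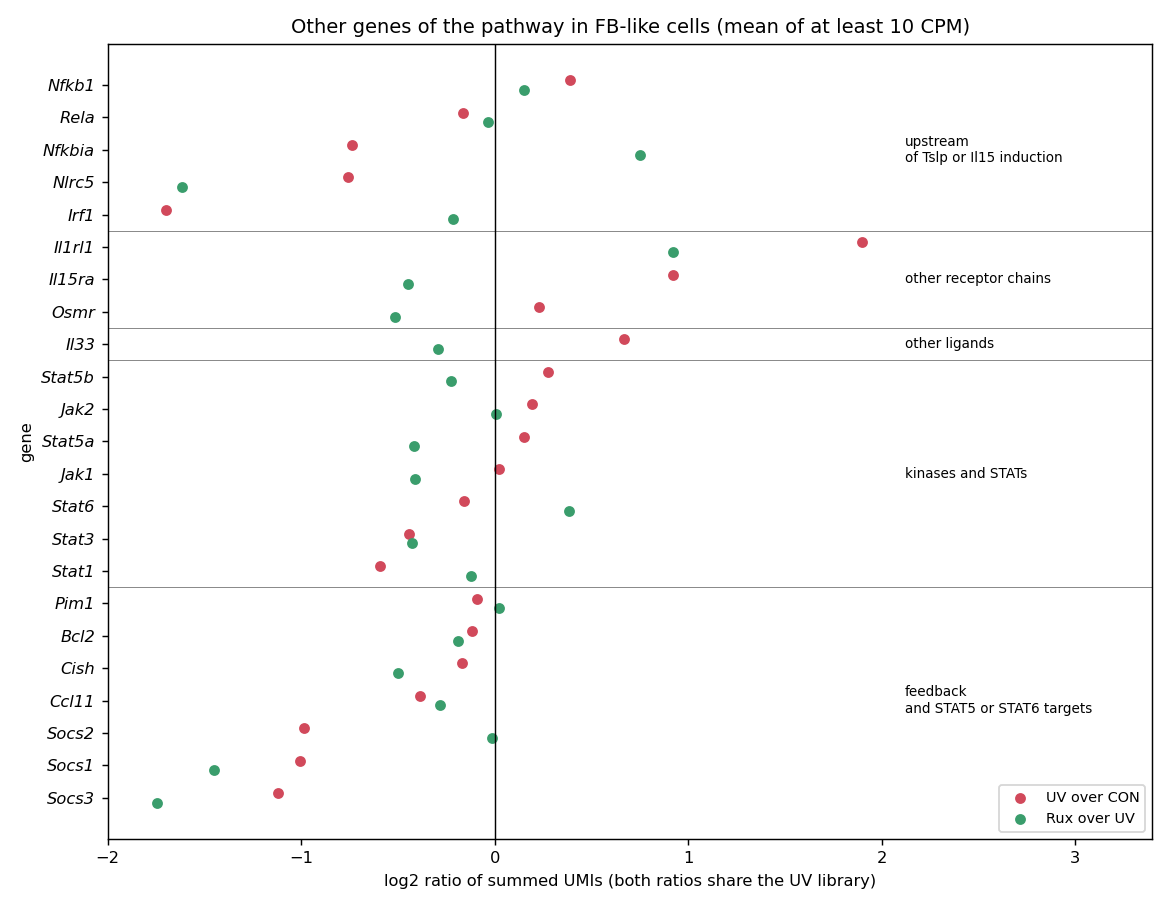
Log2 ratios (x axis) of the other genes of the pathway with a mean of at least 10 CPM in FB-like cells in both comparisons (y axis, grouped by list), for UV over CON and Rux over UV, which share the UV library. Il1rl1 stood above 0 in both (1.90 and 0.92), Socs3 and Socs1 below 0 in both, and Nfkbia on opposite sides (-0.74 and 0.75).

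In MYE-like cells, 4 of 14 feedback and STAT target genes were past 1.5-fold higher and 1 lower for UV over CON, beside 29.0% of all genes, and 2 of 15 were higher and 9 lower for Rux over UV, beside 30.8%. Among them 2 known targets of IL-4 and IL-13 signalling were named after their values had been seen. Arg1, the arginase of alternatively activated macrophages, stood at 0.512 CPM in CON (1 UMI), 208 in UV and 137 in Rux. Ccl24, an eosinophil chemokine, stood at 104, 417 and 17.1 CPM, with a Rux over UV log2 ratio of -4.60 (-4.98 to -4.25). The Arg1-led subcluster 12 had 0 cells in CON, 14 in UV and 64 in Rux.

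For each gene the others most like it across the 51 sums of 17 classes and 3 libraries were found by Pearson's r of log2(CPM + 1). These sums share libraries and classes, so r is only a description. Il7r went with Cd48 (0.956), Cd200r1 and Ptpn22, Il2rg with AI467606 (0.929), Hhex and A630001G21Rik, and Crlf2 with Inpp5d (0.874), Lyn and Cmip. Il15 went with Themis2 (0.838), Cyp4f18 and Slfn4, Il4ra with Dennd4a (0.834), Clec2d and Sp110, and Il7 with Clca3a1 (0.821), Gata6 and Dtx1. The likeness was lower for Il13ra2 with Avpr1a (0.780), Abhd3 and Awat2, for Il13ra1 with Stom (0.757), Tspan9 and Jag1, for Tslp with Ppp1r14a (0.728), Hotairm1 and Ndufa4l2, and for Il31ra with Col4a3 (0.644), Sfrp1 and Nlgn1. Among the 10 genes themselves the highest value was that of Il7r with Il2rg (0.798), and Tslp and its own receptor chain Crlf2 gave -0.11.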

How the data were processed

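Droplet 3' single-cell libraries (10x v3.1) were made from dorsal skin, 1 each for CON, UV and Rux. The authors deposited raw UMI counts per gene and cell. The labels name Cell Ranger 6.1.2, mm10 and Seurat 5.3.0, while the matrix header gives Cell Ranger 7.0.0, and whether intronic reads were counted is not given in the sources used here. Deposited totals were 165337289 (CON), 133972374 (UV) and 131570327 (Rux) UMIs over 13170, 12411 and 11287 barcodes. Barcodes were kept from 200 detected genes upward and up to a mitochondrial share of 10%. The cells with the highest Scrublet scores were removed as doublets (scanpy 1.11.5), at 0.8% per 1000 cells, which took 1161, 1032 and 836 cells. Clustering used Seurat 5.3.0 (R 4.3.3) with 2000 variable genes, 30 principal components and resolution 1.5, and FB-like and immune cells were reclustered at 0.5 and 0.8. A cluster was named only where at least 5 markers of a class were detected in 10% of cells. It also needed a high enough marker score and a clear lead over the next class. Its depth and leading genes could not go against the name, and clusters failing any rule stayed unnamed. Epithelial clusters were then divided into KB, KS, HF and SG, or left as EPI, by the scores of these lists. A class needed 20 cells in each library, a rule that was not applied to the levels of immune groups and immune subclusters.

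Counts were summed over the cells of a class in each library and divided by the class total to give CPM. With 1 library per condition no test was run. Log2 ratios added 0.5 UMIs to each sum and carry exact 95% intervals, which cover counting error only. Genes needed 10 UMIs over the 2 libraries compared, and shares of cells were thinned to 2000 UMIs, with exact binomial intervals. A sum or share of 0 allows up to 3 counts of its total. The ratio script was tested on simulated counts. Alternatives were other cell filters, no doublet removal, resolution 0.8, other scalings, equal weight per cell, fixed subcluster shares and other UMI minimums. The genes, the marker and pathway lists and the rules were chosen with earlier results of these data known. The text names all 10 genes, the 3 genes most like each (r over sums, genes reaching 20 CPM in at least 1), and, of pathway genes averaging 10 CPM or more, the 3 highest and 3 lowest ratios in FB-like cells of each comparison. Other pathway genes and the subclusters were named after their values were seen.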

Additional observations from a re-analysis of the deposited data

Results flagged for a closer look

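With 1 library per condition, the difference between classes named here was not tested. Each was picked out because the log2 ratio of a gene was past 1.5-fold with opposite signs in 2 classes, each with a counting interval clear of 0 and at least 50 UMIs. For UV over CON, Il31ra was higher in FB-like (1.25) and KS-like cells (0.65) and lower in KB-like cells (-0.998). Il7 was higher in EPI-like (1.66) and KS-like cells (2.00) and lower in FB-like cells (-0.75). Il15 was higher in VEC-like cells (0.59) and lower in FB-like cells (-0.68). For Rux over UV, Il31ra was higher in KB-like cells (1.07) and lower in EPI-like (-0.75), FB-like (-1.38) and KS-like cells (-1.33). The 2 KB-like values are those whose sign changed with the processing.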

How the results depend on the processing

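The 39 ratios past 1.5-fold that were followed gave 280 values under alternatives, of which 3 changed sign. Size was less stable. Of all single-gene ratios followed, past the fold or not, others moved outside their counting interval. These were 8 of 18 in FB-like cells with weighted subclusters, 16 of 111 at resolution 0.8 and 13 of 122 with equal weight per cell. With median-of-ratios scaling 2 of 122 moved. Il13ra2 in FB-like cells went to -0.58 for Rux over UV with subclusters weighted to the shares of CON, a weighting that leaves out subcluster 10. Il31ra in KB-like cells went to 0.048 for UV over CON with the stricter cell filter and to -0.64 for Rux over UV at resolution 0.8, and the cause was not tested. Tslp in FB-like cells kept its sign: UV over CON was -1.70 with weighted subclusters and -1.24 with 3 unnamed clusters that carry FB-like markers added (2849 cells). It was -0.67 without the subclusters led by Socs3 and by Saa3 (2111 cells). Rux over UV was 0.21 with weighting and 0.21 without those subclusters. The weighted Rux level draws on subcluster 1, where Rux gave 2 Tslp UMIs in 22 cells. No intervals were computed for these alternatives, so the sign of such small ratios is uncertain. The number of the 10 genes past 1.5-fold in FB-like cells went from 4 to 8 for UV over CON without those subclusters. For Rux over UV it went from 3 to 5 with weighting and to 5 with the unnamed clusters added. The share of all genes past 1.5-fold was not computed under these alternatives. Shares without thinning were 10.1%, 21.9% and 12.6% for Il31ra in FB-like cells and 41.1%, 77.0% and 82.2% for Il7r in LYM-like cells, by construction higher. Adding the unnamed clusters and leaving out the subclusters or the Trdc-led cluster (97 cells) were chosen after seeing the data. No paired analysis was possible because each condition has 1 library. For the same reason neither variation between mice nor leaving out a replicate could be examined, and genes with few UMIs are limited by depth.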
